A study of Mus musculus with 16 samples.

Results

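The proteasome and immunoproteasome genes were followed across 16 tumor RNA-seq libraries of a mouse model of triple-negative breast cancer. The genes are those whose symbols begin with Psma, Psmb, Psmc, Psmd, Psme, Psmf or Psmg followed by a number, and 48 of the 16851 genes shared by the deposited tables met that rule. All groups came from 4T1 cells, a BALB/c mammary carcinoma line, in female wild-type BALB/c mice of 6 weeks. In the subcutaneous groups 400000 cells were placed in the mammary fat pad, and in the liver groups 200000 cells were placed under the liver capsule, as an implanted model of liver metastasis. Tumors grew for 15 days. Treated mice received paclitaxel, which stabilises microtubules, at 10 mg/kg into the peritoneum, 5 times a week for 2 weeks, and controls received PBS. The groups are untreated subcutaneous (pre_SC, 3 libraries), treated subcutaneous (post_SC, 3), untreated liver (pre_Liver, 5) and treated liver (post_Liver, 5). The labels do not state whether each library is a separate mouse, whether the "pre" libraries are the PBS controls or tumors taken before dosing, or how the growth days relate to the treatment weeks, so p-values measure only the spread between these libraries.

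The proteasome is the protease that degrades ubiquitin-tagged proteins. Its 20S barrel is built of alpha rings (Psma genes), which gate entry, and beta rings (Psmb genes), of which Psmb5, Psmb6 and Psmb7 encode the chymotrypsin-like, caspase-like and trypsin-like active sites. Interferon gamma induces Psmb8, Psmb9 and Psmb10, which take the place of Psmb5, Psmb6 and Psmb7 respectively in newly made immunoproteasomes and favour peptides that fit MHC class I. The 19S cap (ATPases Psmc, non-ATPase subunits Psmd) recognises, unfolds and feeds substrates, and the PA28 activator of Psme1 and Psme2, also interferon-induced, opens the barrel without ATP. Constitutive subunit genes are driven largely by Nfe2l1 (NRF1) through antioxidant response elements, and the interferon-induced ones by factors that include Irf1 and Nlrc5.

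Start-site sequences are shown for 2 constitutive and 2 immunoproteasome catalytic genes and for Psme1, because these groups differed in how much they varied between libraries. RefSeq promoter windows of build GRCm38.p6, from 250 bases before to 50 after each start, were matched by symbol for 40 of the 48 genes; Psma8, Psmb1, Psmb2, Psmb7, Psmc3, Psmd3, Psmd7 and Psmg2 had no entry. In the GENCODE M21 annotation of GRCm38, Psmb9 lies at chr17:34181987-34187764 and Psmb8 at chr17:34197721-34201454, on either side of Tap1. Each line gives the stretch from 150 bases before to 20 after the start, read 5′ to 3′ on the gene's strand: Psmb5 at chr14:54617976-54618145 (minus), Psmb6 at chr11:70525207-70525376 (plus), Psmb8 at chr17:34198045-34198214 (plus), Psmb9 at chr17:34187311-34187480 (minus) and Psme1 at chr14:55578344-55578513 (plus). Capitals mark a match to any of 3 motifs, searched on both strands.
Psmb5: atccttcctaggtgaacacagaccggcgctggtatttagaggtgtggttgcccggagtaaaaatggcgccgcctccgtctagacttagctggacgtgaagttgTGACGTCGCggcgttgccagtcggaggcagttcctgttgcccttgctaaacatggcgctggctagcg
Psmb6: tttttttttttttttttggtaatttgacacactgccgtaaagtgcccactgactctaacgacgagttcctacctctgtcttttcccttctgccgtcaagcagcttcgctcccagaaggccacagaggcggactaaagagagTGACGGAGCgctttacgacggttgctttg
Psmb8: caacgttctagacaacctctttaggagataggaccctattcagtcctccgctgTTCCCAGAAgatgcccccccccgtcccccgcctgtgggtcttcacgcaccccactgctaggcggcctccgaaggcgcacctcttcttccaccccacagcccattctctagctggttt
Psmb9: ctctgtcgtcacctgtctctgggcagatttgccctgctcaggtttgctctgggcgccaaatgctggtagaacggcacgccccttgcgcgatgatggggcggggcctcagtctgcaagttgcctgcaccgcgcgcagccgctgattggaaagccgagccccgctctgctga
Psme1: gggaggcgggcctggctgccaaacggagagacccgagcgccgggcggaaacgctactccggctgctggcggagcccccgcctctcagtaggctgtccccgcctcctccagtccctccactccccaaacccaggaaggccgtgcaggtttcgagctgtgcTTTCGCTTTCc
Both constitutive genes held a match to the antioxidant response element (TGACNNNGC), spelled TGACGTCGC in Psmb5, 47 to 39 bases before the start, and TGACGGAGC in Psmb6, 9 to 1 bases before it. Psmb8 held a match to the gamma-activated site (TTCNNNGAA), spelled TTCCCAGAA, 97 to 89 bases before the start. Psme1 held a match to the interferon-stimulated response element core (GAAA, any 2 bases, GAAA), on the opposite strand and spelled TTTCGCTTTC, just after the start. No 2 of these matches overlapped, and the windows of Psmb9, Psmb10 and Psme2 held none of the 3 motifs. For Psmb8, Psmb9 and Psme1 the RefSeq start lies inside the GENCODE gene, whose 5′ end lies upstream of the window. Those ends, which for Psmb9 is the side next to Tap1, were not searched, so the lack of a match in Psmb9 covers only its window. Counting a gene once if any of its windows held a match, 6 of the 40 matched proteasome genes (15.0%) held the antioxidant element, 3 (7.5%) the gamma-activated site and 5 (12.5%) the response element core. Among all 27025 genes in the table the shares were 14.0%, 9.55% and 3.99%. These are matches of letters and not measured binding.

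Expression was deposited without counts, and read depth is therefore not known. Levels are given as TPM, a length-corrected share of transcripts, over the genes shared by all tables, which allows genes to be compared per length; the tables had been normalized separately, so treated liver and treated subcutaneous libraries are set side by side without a test. The carcinoma markers Epcam and Krt8 were detected in every library, with Epcam at 756 to 1098 TPM in the subcutaneous libraries and 22.4 to 697 TPM in the liver libraries. The liver libraries held host liver RNA: the 28 of 30 hepatocyte markers present in all tables summed to 292 to 796 TPM in subcutaneous libraries, 57372 to 222373 in pre_Liver and 6463 to 148350 in post_Liver. The pre_Liver libraries 4 and 5 had the highest sums (220021 and 222373) and the lowest Epcam (22.4 and 34.3 TPM), and the deposited table of untreated libraries had adjusted these 2 apart from the rest; results for the proteasome genes that rest on them are given with and without them. The post_Liver libraries 2 and 3 were the closest pair of any group (Pearson r = 0.9921 across genes, 0.69% of genes over 2-fold apart); with no counts it could not be tested whether they differ beyond sampling noise, and they were kept as 2 libraries. In such bulk samples, fewer cells of a type and less RNA per cell cannot be told apart.

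Transcripts of the immunoproteasome exceeded those of the constitutive catalytic sites in most of these tumors. In pre_SC libraries 1 to 3, Psmb8, the chymotrypsin-like immunoproteasome subunit, stood at 468, 519 and 460.1 TPM, while Psmb5, the subunit it replaces, stood at 121, 163 and 134. Psmb9 stood at 383, 368 and 436 TPM there against 192, 226 and 202 for Psmb6. Psmb10 stood at 315, 318 and 296 TPM against 211, 220.2 and 225 for Psmb7. Every immunoproteasome value was above every value of its constitutive partner in these 3 libraries. The share of catalytic-subunit transcripts that came from Psmb8, Psmb9 and Psmb10 was 69.0%, 66.4% and 68.0%. Over all 16 libraries the 3 highest mean levels among the 48 genes were those of Psme1 (527 TPM), Psmb8 (385) and Psme2 (375). The lowest were Psma8, a testis-type alpha subunit (0.46 TPM), and Psmb11, the catalytic subunit of thymic cortical epithelium (1.76). Psma8 did not pass the filter of a mean value of 1 in any fit and Psmb11 did not in the liver treatment fit.

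**Figure D1:**
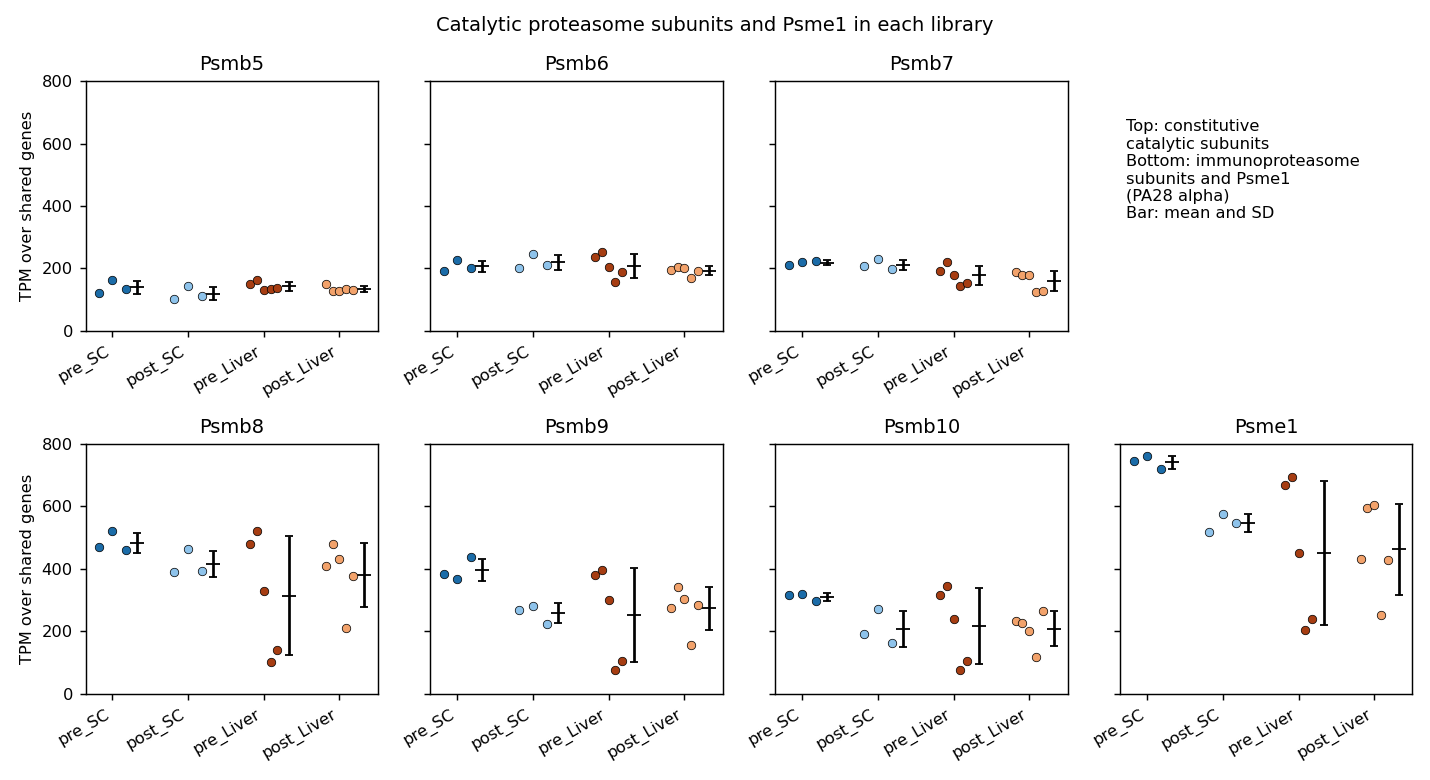
Levels of 7 proteasome genes in each of the 16 libraries, in TPM over shared genes on a linear axis from 0; points are libraries and the bar is the group mean with its SD. Psmb5, Psmb6 and Psmb7 sit between 104 and 251 TPM throughout, while Psmb8, Psmb9, Psmb10 and Psme1 are lowest in 2 of the 5 pre_Liver libraries.

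Paclitaxel-treated subcutaneous tumors had less Psmb9 and Psme1 transcript than untreated ones. Psmb9, the immunoproteasome subunit that replaces Psmb6, stood at 269, 282 and 222 TPM in post_SC libraries 1 to 3, all below the 3 untreated values. It fell by 0.62 on the log2(TPM + 1) scale (SE 0.13, adjusted p = 0.0334, limma with Benjamini-Hochberg adjustment over all genes), and the treated mean was 0.651 of the untreated mean. Psme1, the alpha subunit of PA28, stood at 744, 760.0 and 719 TPM before treatment and 517, 575 and 547 after. The groups did not overlap, and Psme1 fell by 0.44 (SE 0.09, adjusted p = 0.0339 by limma). These were the 2 proteasome genes called lower of 47 tested, or 4.26%, and none was called higher; among all genes tested 6.94% were called, 4.27% lower and 2.66% higher, so the count of calls lies near the background.

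Their closest partners had values in the same direction that missed the threshold. Psmb10 stood at 191, 273 and 161 TPM in post_SC, all below its untreated values, with an estimate of −0.61 in log2 units (SE 0.19, adjusted p = 0.0889 by limma). Psme2, the beta subunit of PA28, stood at 472, 499.6 and 492.8 TPM before treatment and 387, 426 and 317 after, without overlap (−0.39, SE 0.12, limma adjusted p = 0.101). Psmb8 stood at 389.8, 462 and 392 TPM after treatment, where library 2 lay within the untreated range (−0.22, SE 0.11, limma adjusted p = 0.229). The constitutive genes overlapped between groups. Psmb5 stood at 104, 144 and 111 TPM after treatment, Psmb6 at 201, 245 and 211 and Psmb7 at 207, 229 and 199, with log2 differences of −0.22, 0.08 and −0.05. The immunoproteasome share of catalytic transcripts was 62.4%, 62.2% and 59.7% in post_SC, below all 3 untreated shares.

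The calls in this comparison rest on few libraries. Leaving out pre_SC 1, 2 or 3 or post_SC 1 or 3 gave Psmb9 limma adjusted p = 0.0961, 0.0864, 0.128, 0.068 and 0.0521, and Psme1 0.108, 0.108, 0.12, 0.0746 and 0.0544. Without post_SC 2 both stayed called (0.0381 and 0.0452), and Psmb10 was then called too, lower by a log2 difference of −0.82 (limma adjusted p = 0.0227). With median-of-ratios scaling the call of Psme1 ended (limma adjusted p = 0.0557). Exons of Psmb9 overlap those of Tap1 on the opposite strand, those of Psmb8 overlap the antisense gene Gm20496 and those of Psme1 overlap Emc9. Among the constitutive catalytic genes, exons of Psmb7 overlap Nek6 on the opposite strand and those of Psmb5 the microRNA gene Mir686 on the same strand. Whether counting used strand is not given in the sources used here, so reads from such pairs cannot be told apart.

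Of the regulators named above, Irf1 was lower in the same treated tumors. In the list of 9 interferon gamma pathway genes, 3 fell and none rose, where 4.27% of all genes were called lower and 2.66% higher. Irf1, an interferon-induced transcription factor, stood at 338, 285 and 325 TPM before and 156, 188 and 199 after, and fell by 0.81 (SE 0.13, limma adjusted p = 0.0178). The groups did not overlap, and the call ended without pre_SC 1 (limma adjusted p = 0.0735) or pre_SC 3 (0.0819). The other 2 were Irf8, a myeloid interferon factor (−0.97), and Ciita, the MHC class II activator (−2.08); with 1 library left out in turn, Irf8 remained called in 4 of 6 fits and Ciita in 3 of 6. Nlrc5, the class I activator, had a log2 difference of −0.64 without overlap (limma adjusted p = 0.0937). Ifngr1, a receptor chain named after its values were seen, lay wholly above its untreated values after treatment, at 72.3, 68.4 and 83.0 TPM against 55.6, 58.3 and 57.3 (0.37, limma adjusted p = 0.0925). Ifng itself, the cytokine, stood at 4.41, 2.93 and 4.60 TPM before and 1.79, 3.35 and 1.56 after, with overlap (−0.64, limma adjusted p = 0.184).

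Of the 11 genes that load peptides onto MHC class I, 1 was lower, the chaperone Calr (−0.88, SE 0.13, limma adjusted p = 0.017). The peptide transporter genes missed the threshold, with Tap1 at −0.42 (limma adjusted p = 0.0859) and Tap2 at −0.87 (0.0726). B2m, the class I light chain, differed by −0.13. In the list of 7 transcription and assembly partners none was called; Nfe2l1, the driver of constitutive subunit genes, differed by −0.52 without overlap (limma adjusted p = 0.0859), and Pomp, the maturation chaperone of the 20S barrel, by 0.28. Among 10 ubiquitin receptors and deubiquitinases Sem1, a small 19S lid protein, was higher (0.57) and the ligase Ube3c was lower (−0.58). Among 7 ubiquitin and E1 genes Rps27a was higher (0.43) and the E1 enzyme Uba1 lower (−0.61). With 1 library left out in turn, Calr remained called in 3 of 6 fits, Uba1 in 2, Sem1 and Rps27a in 1 each and Ube3c in 0.

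Markers of other cells in the same libraries were measured beside these results. The 10 T and NK cell markers summed to 141 to 183 TPM in pre_SC and 77.6 to 189 in post_SC, with none called. The 8 leukocyte markers summed to 894 to 1096 TPM and 678 to 966, with 1 lower. The 6 endothelial markers summed to 78.2 to 117 TPM and 192 to 237, with 3 higher, and the 12 carcinoma markers to 5081 to 5592 and 4954 to 5844, with none called. No defining marker of these lists was at 0 in every library. The part of these cell types in the Psmb9 and Psme1 values was not tested.

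Before treatment, liver tumors held 2 19S subunit genes at lower levels than subcutaneous tumors, and their immunoproteasome genes were spread widely. Psmd14, the deubiquitinase of the 19S lid, stood at 90.7, 83.4 and 84.3 TPM in pre_SC and 61.0, 79.2, 48.9, 52.1 and 52.5 in pre_Liver libraries 1 to 5, without overlap (log2 difference −0.58, SE 0.19, limma adjusted p = 0.0361). Psmd11, a lid scaffold subunit, stood at 117, 119 and 124 TPM and 91.4, 113, 77.0, 69.3 and 71.2, again without overlap (−0.54, SE 0.20, limma adjusted p = 0.0476). Thus 0 of 47 tested were called higher and 2 lower, or 4.26%, where 48.8% of all genes tested were called, 15.3% higher and 33.5% lower. The median log2 difference was −0.36 over the proteasome genes and −0.52 over all genes tested.

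Both calls depend on the scaling and on single libraries. With median-of-ratios scaling, which moved the median of all genes to −0.03, the differences were −0.06 for Psmd14 and −0.02 for Psmd11, none of the 47 was called lower, and 6 were called higher (Psma4, Psmb3, Psmb6, Psmc3, Psmd8 and Psmd13), or 12.8%, where 23% of all genes were called higher with that scaling. Within the batch that holds both sites, which leaves out pre_Liver 4 and 5, limma adjusted p was 0.092 and 0.125. Leaving out pre_Liver 1, 3, 4 or 5 or pre_SC 1, 2 or 3 gave limma adjusted p = 0.0504, 0.0776, 0.0714, 0.0715, 0.121, 0.0871 and 0.0969 for Psmd14 and 0.0576, 0.0937, 0.0924, 0.0942, 0.123, 0.113 and 0.13 for Psmd11. Without pre_Liver 2, 25 of the proteasome genes, 53.2%, were called lower, and so were 52.1% of all genes.

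In pre_Liver libraries 1 to 5 Psmb8 stood at 479, 521, 328, 102 and 140.3 TPM. Psmb9 stood at 378, 395, 300.3, 76.7 and 105 TPM and Psmb10 at 317, 345, 237, 76.1 and 105. For all 3, libraries 4 and 5 were the lowest, below every other library of the series, and libraries 1 and 2 lay within or close to the subcutaneous range. The log2 differences from pre_SC were −0.91 for Psmb8 (SE 0.55), −0.96 for Psmb9 (SE 0.57) and −0.77 for Psmb10 (SE 0.50), with limma adjusted p = 0.177, 0.171 and 0.212. Within the batch that holds both sites the same differences were −0.16, −0.17 and −0.08. Psme1 showed the same split, at 668, 694, 452, 205 and 238 TPM, all below pre_SC (−0.91, SE 0.44, limma adjusted p = 0.104, and −0.33 in that batch). Psme2 stood at 509, 550.2, 377, 153 and 186 TPM (−0.66, and −0.06 in that batch).

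The constitutive catalytic genes had narrower ranges. Psmb5 stood at 150.1, 164, 131, 134 and 137 TPM in pre_Liver, where libraries 4 and 5 lay within the range of the others. Psmb6 stood at 237, 251, 205, 155 and 189.7 TPM and Psmb7 at 191, 221, 179.5, 144 and 153, where libraries 4 and 5 were also the lowest 2 of the group, by less than for the immunoproteasome genes. The log2 differences from pre_SC were 0.03 (SE 0.17), −0.03 (SE 0.20) and −0.33 (SE 0.18). Over the 10 liver libraries the highest value was 1.29 times the lowest for Psmb5, the smallest such range of the 48 genes, 1.62 times for Psmb6 and 1.78 times for Psmb7. It was 5.10 times for Psmb8, 5.14 for Psmb9, 4.54 for Psmb10, 3.59 for Psme2 and 3.38 for Psme1. Wide ranges were not confined to these genes. The widest of the 48 was that of Psmb11 (7.84 times, at a mean of 1.76 TPM), and Psma8 reached 3.62 times (mean 0.46 TPM), Psmg4 3.23 and Psma5 2.92.

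Other genes of the pathway were also called lower in untreated liver tumors. In that fit 33.5% of all genes tested were called lower and their median log2 difference was −0.52. The interferon and class I counts below lie under that share. The counts of the remaining lists lie above it, on few genes each, and no list was tested as a set. Of the interferon list 2 of 9 were called lower: Jak2, the kinase of the receptor (−2.06), and the receptor chain Ifngr2 (−0.81). Irf1 differed by −1.36 (limma adjusted p = 0.054), Nlrc5 by −1.54 (0.0615) and Ifng by −0.18 (0.761). Within the batch that holds both sites, without pre_Liver 4 and 5, Jak2 was at −1.38 (limma adjusted p = 0.00914), Ifngr2 at −0.44 (0.0757, no longer called), Irf1 at −0.66 (0.0444) and Nlrc5 at −0.69 (0.0537). Of the class I list 3 of 11 were lower, namely the heavy chains H2-D1 (−1.28) and H2-K1 (−1.16) and the peptide editor Tapbpl (−0.73). Tap1, Tap2 and B2m differed by −1.42, −0.77 and −0.58, with limma adjusted p = 0.075, 0.0978 and 0.103. In that batch H2-D1 was at −0.89 (limma adjusted p = 0.0219), H2-K1 at −0.73 (0.0447), Tapbpl at −0.44 (0.0673, no longer called), Tap1 at −0.58, Tap2 at −0.28 and B2m at −0.40. Of the transcription and assembly partners 3 of 7 were lower, with Nfe2l1 at −1.12 (SE 0.23, limma adjusted p = 0.00735), the nuclear import factor Akirin2 at −0.86 and the adaptor Ecpas at −0.57; Pomp differed by −0.06. In that batch Nfe2l1 was at −0.89 (limma adjusted p = 0.0104), Akirin2 at −0.59 (0.0428) and Ecpas at −0.45 (0.107, no longer called). Of the receptors and deubiquitinases 5 of 10 were lower, led by Usp14 (−0.91), and of the ubiquitin and E1 genes 4 of 7, led by Uba6 (−1.24). In that batch Usp14 was at −0.64 (limma adjusted p = 0.0638, no longer called) and Uba6 at −1.19 (0.0272). Of these named calls only that of Nfe2l1 held with each of the 8 libraries left out in turn (highest limma adjusted p = 0.0425). None was called higher in these lists. In the same comparison all 29 tested hepatocyte markers were higher, 11 of 12 carcinoma markers were lower (summed levels of 720 to 3304 TPM in pre_Liver and 5081 to 5592 in pre_SC) and 4 of 5 B cell markers were higher. Endothelial markers were higher in 3 of 6, fibroblast markers in 2 of 7, T and NK cell markers in 1 of 10 with 2 lower, and neutrophil markers in 1 of 8 with 1 lower. Their part in the proteasome values was not tested.

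The level of an immunoproteasome gene relative to the gene it replaces, taken within a library, is almost independent of how that library was scaled. The log2 ratio of Psmb8 to Psmb5 was 1.94, 1.67 and 1.77 in pre_SC and 1.67, 1.66, 1.32, −0.39 and 0.03 in pre_Liver. The groups were apart only by a narrow margin, with a lowest pre_SC ratio of 1.6683 and a highest pre_Liver ratio of 1.6665. The mean was 0.86 ± 0.97 (SD, n = 5) in liver against 1.79 ± 0.14 (n = 3), with p = 0.125 by an exact two-sided permutation test. For Psmb9 to Psmb6 the difference in mean log2 ratio was −0.93 (exact permutation p = 0.125). Here too the groups were narrowly apart, at 0.7023 for the lowest pre_SC and 0.6737 for the highest pre_Liver library. For Psmb10 to Psmb7 it was −0.44, with overlap (exact permutation p = 0.411). Without pre_Liver 4 and 5 these 3 differences were −0.24, −0.31 and 0.09.

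**Figure D2:**
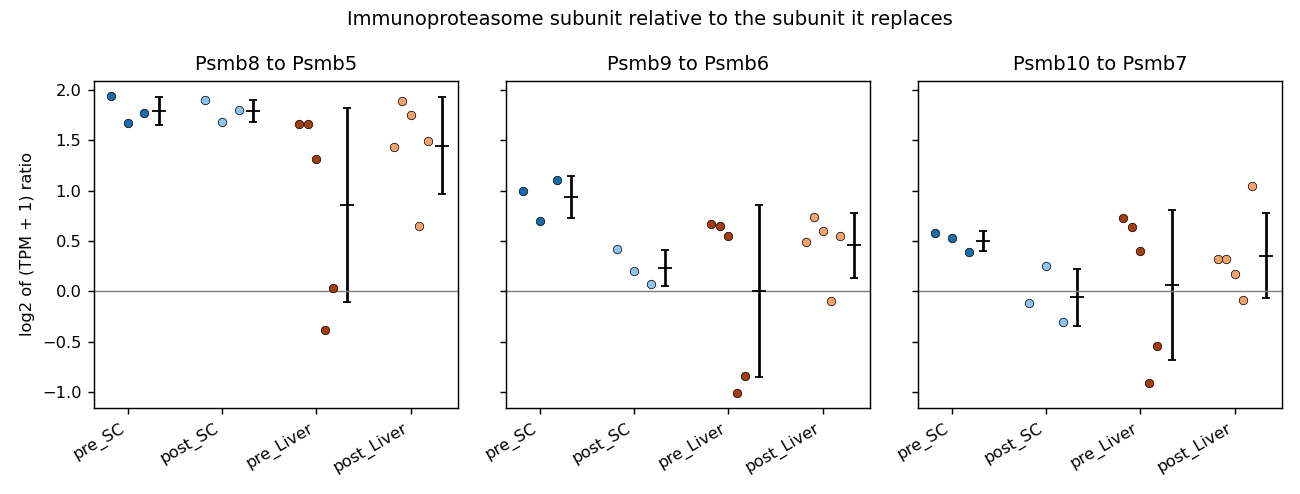
The log2 ratio of each immunoproteasome gene to the constitutive gene it replaces, by library, from (TPM + 1); the grey line marks equal levels and bars are the group mean with its SD. The ratio of Psmb9 to Psmb6 is 0.70 to 1.10 in pre_SC and 0.07 to 0.42 in post_SC, and 2 pre_Liver libraries lie below every other library for all 3 pairs.

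In subcutaneous tumors the ratios of 2 of the 3 pairs lay wholly below their untreated values after paclitaxel, and none passed the test. The log2 ratio of Psmb9 to Psmb6 was 0.99, 0.70 and 1.10 before treatment and 0.42, 0.20 and 0.07 after. Its mean was 0.70 lower, and the groups did not overlap. The ratio of Psmb10 to Psmb7 was 0.58, 0.53 and 0.39 before and −0.12, 0.25 and −0.31 after, a difference of −0.56, also without overlap. Both gave p = 0.1 by an exact two-sided permutation test, the smallest that 3 against 3 allows, so neither could pass the threshold. The ratio of Psmb8 to Psmb5 had a mean of 1.79 in both groups, with SD 0.14 and 0.11 (exact permutation p = 1). In all, 3 pairs were tested in 3 comparisons, and none of the 9 tests had an adjusted p under 0.281. The smallest p that the exact permutation test allows was 0.0179 between untreated sites and 0.0079 in liver tumors. After adjustment over the 9 tests no single test could therefore pass the threshold on its own, so these outcomes do not show that the ratios were equal. Whether the pairs differ from each other was not tested.

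In liver tumors no proteasome gene was called after paclitaxel. By limma 0 of 46 tested were called higher and 0 lower, and 1 had an unadjusted p under 0.05; among all genes 3.64% were called, 2.24% higher and 1.41% lower. The median log2 difference on the log2(FPKM + 1) scale was 0.09 over the proteasome genes and 0.37 over all genes. That 1 gene was Psme3, the nuclear PA28 gamma activator, named here after its values were seen. It stood at 70.2, 88.2, 60.2, 65.3 and 65.2 TPM in pre_Liver and 123, 104, 108, 83.0 and 89.3 in post_Liver, with overlap (0.53, SE 0.16, limma adjusted p = 0.0845). It was called higher without post_Liver 4 (limma adjusted p = 0.0473) and without pre_Liver 2 (limma adjusted p = 0.0286), where calls among all genes reached 2510 higher and 1022 lower.

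In post_Liver libraries 1 to 5 Psmb8 stood at 410.0, 479, 429.8, 209 and 376 TPM. Psmb9 stood at 275, 343, 304, 157 and 284 TPM and Psmb10 at 234, 225, 201, 117 and 265, and library 4 was the lowest for all 3. The log2 differences from pre_Liver were 0.49 for Psmb8 (SE 0.48), 0.36 for Psmb9 (SE 0.49) and 0.13 for Psmb10 (SE 0.44), with limma adjusted p = 0.429, 0.569 and 0.825. Without pre_Liver 4 and 5, an alternative chosen after seeing the data, all turned negative, at −0.26, −0.45 and −0.57, with limma adjusted p = 0.8, 0.573 and 0.477. Without post_Liver 3 the differences were 0.43, 0.29 and 0.12. Psme1 stood at 432, 594, 605, 252 and 429 TPM and Psme2 at 314, 411, 392, 188 and 323. Their differences of 0.14 and 0.01 became −0.45 and −0.60 without those 2 libraries. With median-of-ratios scaling, which moved the median of all genes from 0.37 to 0.03, Psmb8 was at 0.09 (limma adjusted p = 0.862) and Psmb9, Psmb10, Psme1 and Psme2 turned negative, at −0.041, −0.27, −0.26 and −0.40.

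Psmb5 stood at 151, 128, 127, 133 and 133 TPM in post_Liver, Psmb6 at 196, 205, 199.9, 168 and 193 and Psmb7 at 187, 180.2, 178, 124 and 128. Their log2 differences were −0.09, −0.09 and −0.16, and every group of 5 overlapped with its untreated counterpart. The log2 ratio of Psmb8 to Psmb5 was 1.43, 1.89, 1.75, 0.65 and 1.498 after treatment, with a difference in means of 0.59 (exact permutation p = 0.254). The differences were 0.45 for Psmb9 to Psmb6 (exact permutation p = 0.341) and 0.29 for Psmb10 to Psmb7 (exact permutation p = 0.492). None of the 5 fixed pathway lists had a called gene in the liver treatment comparison. Ifng, Irf1 and Nlrc5 differed by −0.17, 0.25 and 0.66, Tap1, Tap2 and B2m by 0.76, 0.36 and 0.43, and Nfe2l1 and Pomp by 0.33 and 0.08, with limma adjusted p from 0.263 to 0.809.

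Within each liver group the immunoproteasome share was lowest in the libraries with the most Alb, the hepatocyte albumin transcript. The share was 67.0%, 66.5%, 62.7%, 37.0% and 42.2% in pre_Liver 1 to 5, where Alb stood at 23350, 8270, 28054, 56960 and 61489 TPM. It was 63.2%, 67.1%, 64.9%, 53.2% and 67.1% in post_Liver 1 to 5, where Alb stood at 10837, 877, 738, 21984 and 11115 TPM. The 3 libraries of lowest share, pre_Liver 4 and 5 and post_Liver 4, also had the lowest Epcam of all libraries, at 22.4, 34.3 and 85.1 TPM. They had the lowest Irf1 of the liver libraries, at 53.2, 65.8 and 85.8 TPM, and the lowest Nlrc5, at 9.93, 10.5 and 17.9 TPM. The libraries pre_Liver 1 and 3 held more Alb than post_Liver 4 and had higher shares. In the liver treatment comparison 7 of 8 neutrophil markers were called higher, with summed levels of 441 to 1757 TPM before and 3872 to 18783 after, and 2 of 29 tested hepatocyte markers were called lower. Leukocyte markers were called higher in 2 of 8. Carcinoma markers were called in 0 of 12, with a median log2 difference of 1.38. Among all genes 2.24% were called higher and 1.41% lower. The pre_Liver libraries 4 and 5 are also those that the deposited table of untreated libraries had adjusted apart. For them high Alb and batch cannot be told apart. The part of liver RNA, of batch, of carcinoma cells and of neutrophils or other leukocytes in the proteasome values was not tested.

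**Figure D3:**
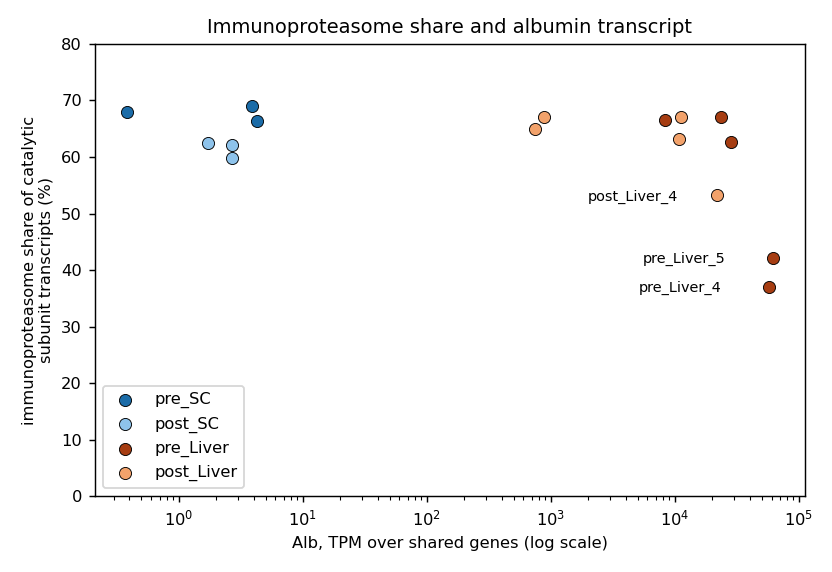
Share of catalytic-subunit transcripts from Psmb8, Psmb9 and Psmb10 (%) against Alb in TPM over shared genes (log axis), 1 point per library. The 6 subcutaneous libraries have Alb at 0.38 to 4.24 TPM and shares of 59.7% to 69.0%; the 3 named liver libraries have shares of 37.0%, 42.2% and 53.2%.

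The treatment differences at the 2 sites were compared directly by an interaction term, and no proteasome gene was called. By limma 0 of 47 were called higher and 0 lower in liver relative to subcutaneous, and 2 had an unadjusted p under 0.05, where 3.03% of all genes were called, 2.23% higher and 0.796% lower. The estimates were 0.72 for Psmb8 (SE 0.64), 0.98 for Psmb9 (SE 0.66) and 0.74 for Psmb10 (SE 0.61), with limma adjusted p = 0.468, 0.336 and 0.437. Without pre_Liver 4 and 5 they were −0.02, 0.19 and 0.05. For Psmb5, Psmb6 and Psmb7 they were 0.13, −0.18 and −0.11. The 2 genes with an unadjusted p under 0.05, named after their values were seen, were Psme3 (0.68, SE 0.22, limma adjusted p = 0.0942) and Psmd5, a 19S base chaperone (0.50, SE 0.23, limma adjusted p = 0.195). Without pre_Liver 2 Psme3 was called (limma adjusted p = 0.0228). Irf1 had an interaction of 1.06 (SE 0.61, limma adjusted p = 0.273), Nlrc5 1.33 (0.283), Tap1 1.18 (0.308), Tap2 1.23 (0.141), B2m 0.57 (0.277), Nfe2l1 0.86 (0.115), Pomp −0.20 (0.687) and Ifng 0.46 (0.66). The untreated libraries serve in the site comparison as well as in the treatment comparisons, so these estimates are not independent of each other.

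In the treated groups, set side by side without a test, mean Psmb8 was 381 TPM ± 103 (SD, n = 5) in post_Liver and 415 ± 41.4 (n = 3) in post_SC. Mean Psmb9 was 273 ± 69.8 and 258 ± 31.4 TPM, and mean Psmb10 was 208 ± 56.0 and 208 ± 57.9. Mean Psme1 was 462 ± 145 and 547 ± 28.9 TPM. Without post_Liver 3 (n = 4) the post_Liver means were 369 ± 114, 265 ± 77.9, 210.3 ± 64.5 and 427 ± 139.7 TPM for Psmb8, Psmb9, Psmb10 and Psme1. The post_Liver and post_SC ranges overlapped for these 4 genes, unlike the pre_Liver and pre_SC ranges of Psme1. For Psme1 this rested on post_Liver 2 and 3 (594 and 605 TPM), the closest pair of libraries. The post_Liver libraries 1, 4 and 5 (432, 252 and 429 TPM) lay below all post_SC values (517, 575 and 547 TPM).

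The other proteasome genes were tested in the same fits, and apart from Psmd11 and Psmd14 none was called in the site comparison or in either treatment comparison. The 7 tested alpha-ring genes had log2 differences of −0.94 to −0.09 between the untreated sites, with Psma5 at the lower end and not overlapping (228, 212 and 219.9 against 165, 204, 120.2, 70.0 and 73.5 TPM, limma adjusted p = 0.0593, and −0.48 within the batch that holds both sites). After treatment they ranged from −0.21 to 0.33 in subcutaneous tumors, where Psma2 and Psma6 did not overlap on the higher side and Psma5 on the lower, and from −0.07 to 0.29 in liver tumors. The 4 structural beta-ring genes ranged from −0.32 to 0.01 between sites. After treatment they ranged from −0.01 to 0.34 in subcutaneous tumors and 0.11 to 0.13 in liver tumors.

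The 6 ATPase genes of the 19S base ranged from −0.38 to 0.29 between sites, −0.02 to 0.22 in treated subcutaneous tumors and −0.08 to 0.17 in treated liver tumors. The 14 non-ATPase and base-chaperone genes ranged from −0.68 to 0.19, −0.26 to 0.45 and −0.05 to 0.38 in the same order. The highest of these in treated subcutaneous tumors was Psmd9, an assembly chaperone of the base, at 21.8, 24.4 and 20.8 TPM before and 28.0, 29.9 and 34.8 after, without overlap (0.45, SE 0.14, limma adjusted p = 0.0973). Psme4, the PA200 activator, stood at 25.7, 21.2 and 28.6 TPM before and 31.2, 37.2 and 30.5 after, also without overlap (0.38, limma adjusted p = 0.17), and Psmf1, the PI31 inhibitor, differed by 0.17. The 4 chaperones of 20S assembly ranged from −0.95 to −0.18 between sites, where Psmg4 was lowest and did not overlap (limma adjusted p = 0.0643, and a difference of −0.45 within the batch that holds both sites), and from −0.38 to 0.08 and 0.02 to 0.47 after treatment.

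In treated subcutaneous tumors 9 of the 47 tested genes, 19.1%, lay wholly above the untreated libraries, and 6, 12.8%, wholly below, where 16% and 18.7% of all genes did. The 9 were Psma2, Psma6, Psmb1, Psmb3, Psmb11, Psmd1, Psmd6, Psmd9 and Psme4. The 6 were Psma5, Psmb9, Psmb10, Psme1, Psme2 and Psmg1. These genes, and Psma2, Psma5, Psma6, Psmd9, Psme4, Psmf1 and Psmg4 above, were named after their values were seen. Between the untreated sites 5 genes, 10.6%, lay wholly below and none above, where 35.2% and 17% of all genes did. In liver tumors none of the 46 lay wholly above or below after treatment, where 5.16% and 1.47% of all genes did. The median log2 difference after treatment in subcutaneous tumors was 0.06 over the proteasome genes and −0.03 over all genes. It was −0.61 over the 3 immunoproteasome genes, −0.41 over Psme1 and Psme2 and −0.05 over the 3 constitutive catalytic genes.

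**Figure D4:**
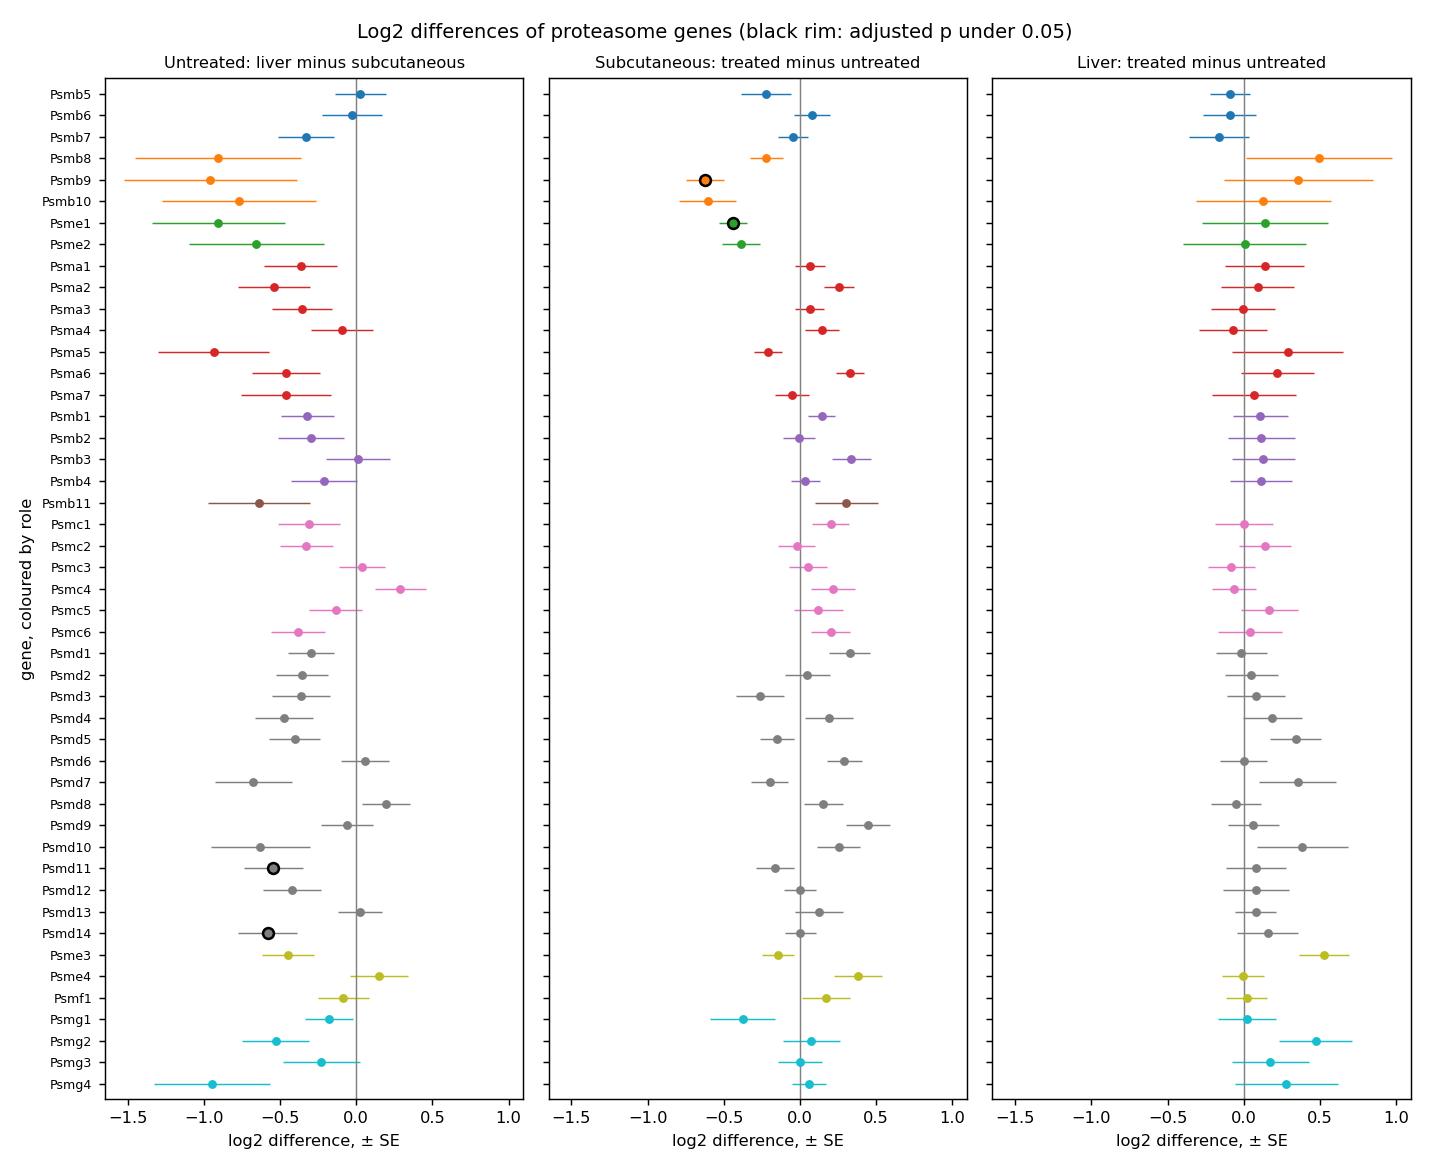
Log2 differences (with SE) of the 47 proteasome genes that passed the filter in at least 1 fit, in the untreated site comparison and in both treatment comparisons, coloured by role. Psmd11 and Psmd14 carry a black rim in the first panel and Psmb9 and Psme1 in the second, marking adjusted p under 0.05, and no gene does in the third.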

How the data were processed

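Tools listed in the submitters' processing notes are StringTie and fastp, and the builds are mm10 and GRCm38; roles and versions are not given in the sources used here. Per the labels, RNA was poly(A)-selected from digested, frozen tumor cells. The liver table was deposited as FPKM, and the subcutaneous table was deposited as TPM. In the table of untreated libraries, the deposited values behave as TPM plus a constant per gene and batch (2376 genes held values below 0), another unit than planned for. The constant was removed for 17391 of 17498 genes, and the restored values differed from the subcutaneous table by at most 6.51e-06 TPM. Names that had turned into dates, 24 per table, were left out of the TPM and untreated tables. Depth per library is unknown, and no interval from counts can be given.

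Differences were fitted with limma 3.58.1 in R 4.3.3 on log2(value + 1), for genes with a mean of at least 1 over the libraries of a fit, with Benjamini-Hochberg adjustment over all genes tested and a threshold of 0.05. Such fold changes understate those of low genes. The 9 pair ratio tests were exact two-sided permutation tests in Python 3.11.15. Both procedures were tested on simulated data. Levels were rescaled to TPM over the 16851 shared genes. The replicate numbers were checked for pairing, and same-numbered libraries were not treated as pairs. Alternatives were another pseudocount, no filter, 3 other scalings, a block and each library left out.

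Named genes are Psmb5 to Psmb10, Psme1 and Psme2 in every library, up to 4 called others in each direction, all that failed the filter, 8 pathway genes and up to 3 called genes per pathway list in order of p. The genes and lists were chosen with earlier results of these data known, and 1 gene planned for the interferon list was taken out of it and is not reported here. Marker lists for macrophages, B cells and fibroblasts were also summed: macrophage markers gave 1634 to 1988 TPM in pre_SC, 1993 to 2564 in post_SC, 1282 to 2395 in pre_Liver and 1264 to 7517 in post_Liver, fibroblast markers 1524 to 2227, 1306 to 1768, 1422 to 3356 and 871 to 6496, and B cell markers 1.04 to 3.48, 0.75 to 1.35, 14.9 to 102 and 7.30 to 124.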

Additional observations from a re-analysis of the deposited data

Results flagged for a closer look

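In 6 of 102 groups of 5 liver libraries checked, 1 library stood apart from the other 4 by Dixon's criterion, where chance alone gives about 1 in 20. In pre_Liver, library 2 was the highest for 4 genes of the 19S cap. The ATPase Psmc2 stood at 148 TPM there against 101 to 113 in the others, and the scaffold Psmd1 at 104 against 79.8 to 85.4. The base chaperone Psmd5 stood at 52.6 TPM against 36.9 to 39.9, and the lid subunit Psmd12 at 122 against 78.5 to 83.5. In post_Liver, library 1 was the highest for Psmb5, at 151 TPM against 127 to 133, and for the ATPase Psmc3, at 167 against 113 to 122. In the untreated site comparison, leaving out pre_Liver 2 raised the number of proteasome genes called lower from 2 to 25, or 53.2%, where 52.1% of all genes were then called lower.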

How the results depend on the processing

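With no counts deposited, depth sets no stated limit here, and the small number of libraries bounds the precision. The cause of the changes below was not tested. The number of proteasome genes called lower in untreated liver was 2 as reported. It was 0 with median-of-ratios scaling, without the hepatocyte list and within the batch that holds both sites. In that order 19%, 22.8% and 20.5% of all genes were then called lower. With quantile normalization it was 4 (8.51%, against 33.2% of all genes), and on the values as deposited 8 (17%, against 38.5%). Those called higher, 0 as reported, were 1 with no filter, 6 with median-of-ratios scaling and 2 without the hepatocyte list. Among all genes 13.2%, 23% and 19% were then called higher. In subcutaneous tumors median-of-ratios scaling left 1 called lower after treatment, Psmb9 (−0.60, limma adjusted p = 0.0317). Psme1 lost its call (−0.42, limma adjusted p = 0.0557). That scaling gave 1 called lower in the difference between sites, Psma4. With that scaling 4.05% and 0.98% of all genes were called lower in these fits, against 2.13% of the proteasome genes in each. Leaving out each library in turn gave 0 to 25 called lower between untreated sites, 0 to 3 called lower in subcutaneous tumors, 0 to 1 called higher in liver tumors and 0 to 1 called higher in the difference. Calls among all genes were 2106 higher and 4598 lower between untreated sites and 3145 and 2596 with median-of-ratios scaling, 2637 and 3153 without the hepatocyte list. In liver tumors they were 291 and 183, and 127 and 94 with median-of-ratios scaling, which moved their median from 0.37 to 0.03; in the difference they were 306 and 109, and 187 and 134.

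Same-numbered libraries correlated at −0.08 to 0.00 between sites, −0.16 to 0.13 in subcutaneous tumors and −0.12 to 0.75 in liver tumors. In the same order, 0 of 6, 1 of 6 and 3 of 10 libraries were closest to their own number. They were not treated as pairs. For liver tumors this check cannot settle pairing, as pre_Liver 2 and post_Liver 2 correlated at 0.677 and pre_Liver 4 and post_Liver 4 at 0.746. With the replicate block 0 proteasome genes were called lower between untreated sites and 0 in treated subcutaneous tumors, 2 were higher in treated liver tumors and 1 in the difference, and calls among all genes were 1834 higher and 1947 lower, 111 and 217, 2435 and 1021, and 1612 and 523. The block turned Psmb6 to 0.15, Ifng to 0.44, Pomp to 0.17 and the ratio of Psmb10 to Psmb7 to 0.09 between untreated sites. These are the same values as within the batch that holds both sites. The liver libraries outside that batch carry numbers that no subcutaneous library has, so the block removes them from the difference. For the size of these differences the block is therefore not a separate alternative, and the sign changes say nothing about pairing.

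Some differences that were not called as reported changed sign. Between untreated sites these were Psmb6 (0.50), Psmb7 (0.20), Ifng (0.20) and Pomp (0.47) with median-of-ratios scaling, Psmb6 (0.21) and Pomp (0.18) without the hepatocyte list, Psmb6 (0.0073) with quantile normalization, and Psmb6 (0.17), Ifng (0.77), Pomp (0.21) and the ratio of Psmb10 to Psmb7 (0.0696) on the values as deposited. Within the batch that holds both sites they were Psmb6 (0.15), Ifng (0.44), Pomp (0.17) and that ratio (0.09). In liver tumors median-of-ratios scaling gave Psmb9 −0.041, Psmb10 −0.27, Psme1 −0.26, Psme2 −0.40, Irf1 −0.14, Tap2 −0.038, Nfe2l1 −0.065 and Pomp −0.32, and rescaling without the hepatocyte list gave Psmb10 −0.014, Psme1 −0.0026, Psme2 −0.14 and Pomp −0.067. Without pre_Liver 4 and 5 they were Psmb8 −0.26, Psmb9 −0.45, Psmb10 −0.57, Psme1 −0.45, Psme2 −0.60, Irf1 −0.46, Nlrc5 −0.16, Tap1 −0.093, Tap2 −0.14 and Pomp −0.17, and the ratios of Psmb8 to Psmb5, Psmb9 to Psmb6 and Psmb10 to Psmb7 were −0.10, −0.17 and −0.24. In the difference between sites Psmb5 was −0.33 and Psme2 −0.074 with median-of-ratios scaling, Psmb5 −0.027 without the hepatocyte list, and Psmb8 −0.021, Psme2 −0.20 and Ifng −0.16 without pre_Liver 4 and 5.

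Leaving out each library in turn gave, in liver tumors, Ifng −0.41 to 0.012, Irf1 −0.061 to 0.49, Pomp −0.049 to 0.21, Psmb9 −0.0076 to 0.59, Psmb10 −0.20 to 0.35, Psme1 −0.11 to 0.34 and Psme2 −0.27 to 0.20. Between untreated sites it gave Ifng −0.39 to 0.11, Pomp −0.15 to 0.049, Psmb5 −0.068 to 0.14 and Psmb6 −0.10 to 0.074. In subcutaneous tumors it gave Psmb6 −0.0012 to 0.15 and the ratio of Psmb8 to Psmb5 −0.061 to 0.076.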
